A study of Mus musculus with 9 samples.

Results

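ATP-binding cassette (ABC) transporters are membrane proteins that use ATP to move bile salts, phospholipid, sterols, conjugated metabolites and drugs, and a smaller number of family members work without membrane domains. The genes were chosen by symbol alone: every probe set of the array that carried a single gene symbol of the form Abc, a subfamily letter from a to g, a number and an optional letter was taken, and the brightest probe set over all 9 arrays stood for its gene. This gave 48 genes of the 19938 genes with a probe set of their own, and 49 of the 28939 probe sets tested, since Abcb5 had 2 probe sets and the other 47 genes had 1.

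In the hepatocyte, ABC proteins of the canalicular membrane make bile: Abcb11 exports bile salts, Abcb4 turns phosphatidylcholine outward so that the salts can pick it up, the Abcg5-Abcg8 pair exports sterols, and Abcc2 exports conjugated bilirubin and glutathione. Several C subfamily pumps face the blood instead and provide an outlet for conjugates when bile flow is impaired. Other members move cholesterol and phospholipid out of many cell types, or carry fatty acyl-CoA and haem precursors or products across peroxisomal and mitochondrial membranes, and they are therefore not particular to hepatocytes.

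RNA of whole liver was measured on 9 arrays, from male C57/BL6 mice aged 8 to 9 weeks on standard chow. There were 3 genotypes with 3 arrays each: wild type, a hepatocyte-specific knockout of NEMO (NEMOΔhepa), and mice labelled as lacking NEMO in hepatocytes and p21 in the whole body, called the labelled double knockout here. Ikbkg encodes NEMO, a subunit without which the IkappaB kinase cannot activate NF-kappaB, and Cdkn1a encodes p21, a brake on the cell cycle that acts on cyclin-dependent kinases. No p21 knockout with intact NEMO was among the groups, so an effect of p21 loss by itself has no comparison here. The sources used here do not give the Cre driver or say whether the wild types carried a floxed allele. The title of the study concerns DNA damage, cholestasis and liver cancer after loss of p21. All values are log2 array signals normalised by RMA (robust multi-array averaging). A difference of 1 on this scale is a doubling of signal, and signals of different probe sets were not set against each other. Differences are from a limma fit over all 28939 probe sets with Benjamini-Hochberg adjustment, called at an adjusted p under 0.05.

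The target gene was lower where the labels say NEMO was deleted, and p21 was not lower where the labels say it was deleted. Ikbkg read 8.73, 8.89 and 8.98 in wild type, 8.23, 8.48 and 8.35 in the NEMO knockout, and 8.10, 8.26 and 8.45 in the labelled double knockout, with no overlap between wild type and either other group. Its limma difference from wild type was -0.52 ± 0.11 (SE) in the NEMO knockout (adjusted p = 0.0184) and -0.60 in the labelled double knockout (adjusted p = 0.00835). The first of these calls ended without wild type array 2 or 3 or NEMO knockout array 1 or 3 (adjusted p of 0.0625, 0.0729, 0.0524 and 0.0647). Cdkn1a, whose probe set is annotated jointly with a second transcript, read 8.54, 9.64 and 7.83 in wild type, 9.76, 10.70 and 9.83 in the NEMO knockout, and 11.14, 10.14 and 11.06 in the labelled double knockout. The labelled double knockout thus exceeded wild type by 2.11 (limma adjusted p = 0.0194) and differed from the NEMO knockout by 0.68 (adjusted p = 0.803), which goes against the label; the labels do not say which part of the gene was deleted, so a probe set outside that part would check nothing. On the first principal component of all probe sets, with 46.7% of the variance, the wild type arrays (31.6 to 34.2) stood apart from both knockout groups (-9.2 to -21.3), which were not separated from each other. On the second, NEMO knockout array 1 (6.3) lay away from NEMO knockout arrays 2 and 3 (-17.1 and -22.9). The labels do not say that the arrays of a group came from separate animals, so p-values measure the spread between these samples.

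The promoters of some members, called and uncalled, are shown first. Abcd2, Abcg1, Abca8a and Abcb10, called against wild type in both knockout groups, are not among them. The sequences were taken from RefSeq on mouse build GRCm38.p6, where 38 of the 48 genes had an entry. Each is the 250 bases before the annotated start, read 5′ to 3′ on the gene's own strand. Capitals mark 3 motifs searched on both strands: AGGTCA, the nuclear receptor core element; CCAAT, the box bound by NF-Y; and GGGCGG, the Sp1 box. The first set is the bile salt pump, whose signal fell, and the chromosome 5 cluster of Abcb1a, Abcb1b and Abcb4, adjacent protein-coding genes of which Abcb1a and Abcb4 rose.
Abcb11, chr2:69342617-69342866, minus strand: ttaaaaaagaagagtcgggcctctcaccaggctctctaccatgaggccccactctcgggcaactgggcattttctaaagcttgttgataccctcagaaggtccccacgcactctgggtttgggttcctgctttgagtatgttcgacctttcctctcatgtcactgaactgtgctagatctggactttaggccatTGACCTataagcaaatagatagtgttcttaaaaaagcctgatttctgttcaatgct
Abcb4, chr5:8893471-8893720, plus strand: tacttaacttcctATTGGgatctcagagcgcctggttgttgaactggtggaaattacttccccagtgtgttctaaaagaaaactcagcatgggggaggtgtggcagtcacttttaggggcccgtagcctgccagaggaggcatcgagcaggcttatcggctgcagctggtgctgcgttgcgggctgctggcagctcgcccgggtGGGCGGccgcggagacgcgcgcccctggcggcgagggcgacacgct
Abcb1a, chr5:8566841-8567090, plus strand: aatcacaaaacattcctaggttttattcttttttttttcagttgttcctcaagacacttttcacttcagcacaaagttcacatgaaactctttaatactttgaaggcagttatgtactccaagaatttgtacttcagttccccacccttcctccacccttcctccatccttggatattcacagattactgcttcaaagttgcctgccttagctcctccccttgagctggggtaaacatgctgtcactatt
Abcb1b, chr5:8797897-8798146, plus strand: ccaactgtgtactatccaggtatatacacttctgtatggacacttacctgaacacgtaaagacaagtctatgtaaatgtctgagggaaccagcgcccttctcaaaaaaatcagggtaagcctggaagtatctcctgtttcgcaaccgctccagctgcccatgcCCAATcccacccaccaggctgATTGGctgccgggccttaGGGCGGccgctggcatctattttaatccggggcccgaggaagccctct
The Abcb11 window held 1 AGGTCA, on the minus strand of the gene and 56 bases before the start. The Abcb4 window held CCAAT 237 bases and GGGCGG 46 bases before the start. The Abcb1b window held CCAAT at 87 and 66 bases and GGGCGG at 48 bases before the start, and the Abcb1a window held none of the 3 motifs. The windows also differed in GC content, at 46.4% for Abcb11, 61.6% for Abcb4, 40.4% for Abcb1a and 52.8% for Abcb1b.

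A second set is a pair of divergent neighbours on chromosome 17, Abca3 and Abca17, whose starts lie 964 bases apart and of which only Abca3 passed the test.
Abca3, chr17:24351773-24352022, plus strand: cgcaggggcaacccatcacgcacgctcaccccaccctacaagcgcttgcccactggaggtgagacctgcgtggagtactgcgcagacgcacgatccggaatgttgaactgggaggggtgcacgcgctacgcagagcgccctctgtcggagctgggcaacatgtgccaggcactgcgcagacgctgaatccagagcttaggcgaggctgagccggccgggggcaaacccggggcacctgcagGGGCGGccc
Abca17, chr17:24351060-24351309, minus strand: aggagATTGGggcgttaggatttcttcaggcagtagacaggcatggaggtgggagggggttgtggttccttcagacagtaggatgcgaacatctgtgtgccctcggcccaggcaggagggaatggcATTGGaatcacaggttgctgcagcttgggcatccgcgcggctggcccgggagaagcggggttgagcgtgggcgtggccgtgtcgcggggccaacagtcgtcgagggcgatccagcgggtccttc
Abca3 had GGGCGG 9 bases before its start, and Abca17 had CCAAT at 245 and 124 bases; their GC contents were 67.6% and 63.2%. The third set is the stretch between the starts of Abcg5 and Abcg8, the sterol pump's genes, which lie 110 bases apart. Abcg8 also had an annotated start at position 84676302, which was not used for this stretch. Here capitals also mark AGATAA, which GATA factors can bind.
Abcg5 to Abcg8, chr17:84683012-84683120, plus strand: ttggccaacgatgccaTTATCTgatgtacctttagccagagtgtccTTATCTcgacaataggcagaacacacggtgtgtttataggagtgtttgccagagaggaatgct
AGATAA occurred at positions 17 and 47 of these 109 bases, counted from the Abcg5 end, and none of the other 3 motifs occurred in them. Over 32851 windows of 250 bases in the RefSeq table, AGGTCA was in 14%, CCAAT in 33.8% and GGGCGG in 32.7%, while the 45 windows of the ABC genes held them in 15.6%, 28.9% and 44.4%. AGATAA was in 9.99% of windows of 250 bases and in 3.98% of windows of 109 bases. A match describes the letters and does not show a bound site.

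Against wild type, the NEMO knockout liver showed higher signals of the phospholipid floppase Abcb4, the drug pump Abcb1a, the conjugate pumps Abcc1 and Abcc5, the sterol exporter Abcg1, the channel subunit Abcc9 and the peroxisomal carrier Abcd2. The bile salt pump Abcb11, the mitochondrial Abcb10, Abca8a and Abcf3 had lower signals. In all, 11 of the 48 genes (22.9%) were called, 7 higher and 4 lower, beside 7.68% of all probe sets (5.66% higher and 2.02% lower). Of narrower backgrounds, 9.28% of all single-symbol genes were called, and 12.9% of the probe sets at or above the median brightness. Of the 36 members that bright 30.6% were called, and none of the 12 dimmer ones. Brightness was the mean over all 9 arrays, so a raised member could pass the median through its knockout arrays. The wild type means of Abcb1a, Abcc1 and Abcc5 (6.43, 6.41 and 6.33) were below that median (6.53). The split by brightness is therefore not independent of the calls. The groups did not overlap for 20 of the 48 members, 11 higher and 9 lower, beside 23.2% of all probe sets, and 17 members had an unadjusted p under 0.05, beside 20.3%. The median difference over the members was -0.06, beside -0.04 over all probe sets, and the range ran from -0.93 to 2.06.

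The labelled double knockout differed from wild type in 15 of the 48 genes (31.2%, beside 9.32% of all probe sets), 10 higher and 5 lower (5.81% and 3.51% of all probe sets). Of all single-symbol genes 11% were called. Of the 36 brighter members 41.7% were called, beside 15.7% of the probe sets that bright. The same limit applies to this split, and here it also touches Abcg3 (wild type mean 6.32). The groups did not overlap for 23 members, beside 25.1%, and 22 had an unadjusted p under 0.05, beside 21%. The same 11 genes were called in both comparisons, in the same directions; Abcc4, Abca3 and Abcg3 (higher) and Abcc10 (lower) were called in this one alone, and the difference between the knockout groups was called for Abca3 only. The count fell to 8 without wild type array 1 and to 9 without labelled double knockout array 2. Both comparisons use the same 3 wild type arrays, so that their likeness is not independent evidence. Between the labelled double knockout and the NEMO knockout, 1 of 48 (2.08%) was called, beside 0.197% of all probe sets (0.0864% higher and 0.111% lower), a background that ran from 0.0346% to 0.339% over the alternatives. At an unadjusted p under 0.05 this comparison had 4 members, beside 7.46% of all probe sets; the groups did not overlap for 10, with 2 higher and 8 lower, beside 4.99% and 5.75%, and without labelled double knockout array 2 it had 2 calls, Abca3 and Abcd2. In total 33 members were called in none of the 3 comparisons.

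**Figure D1:**
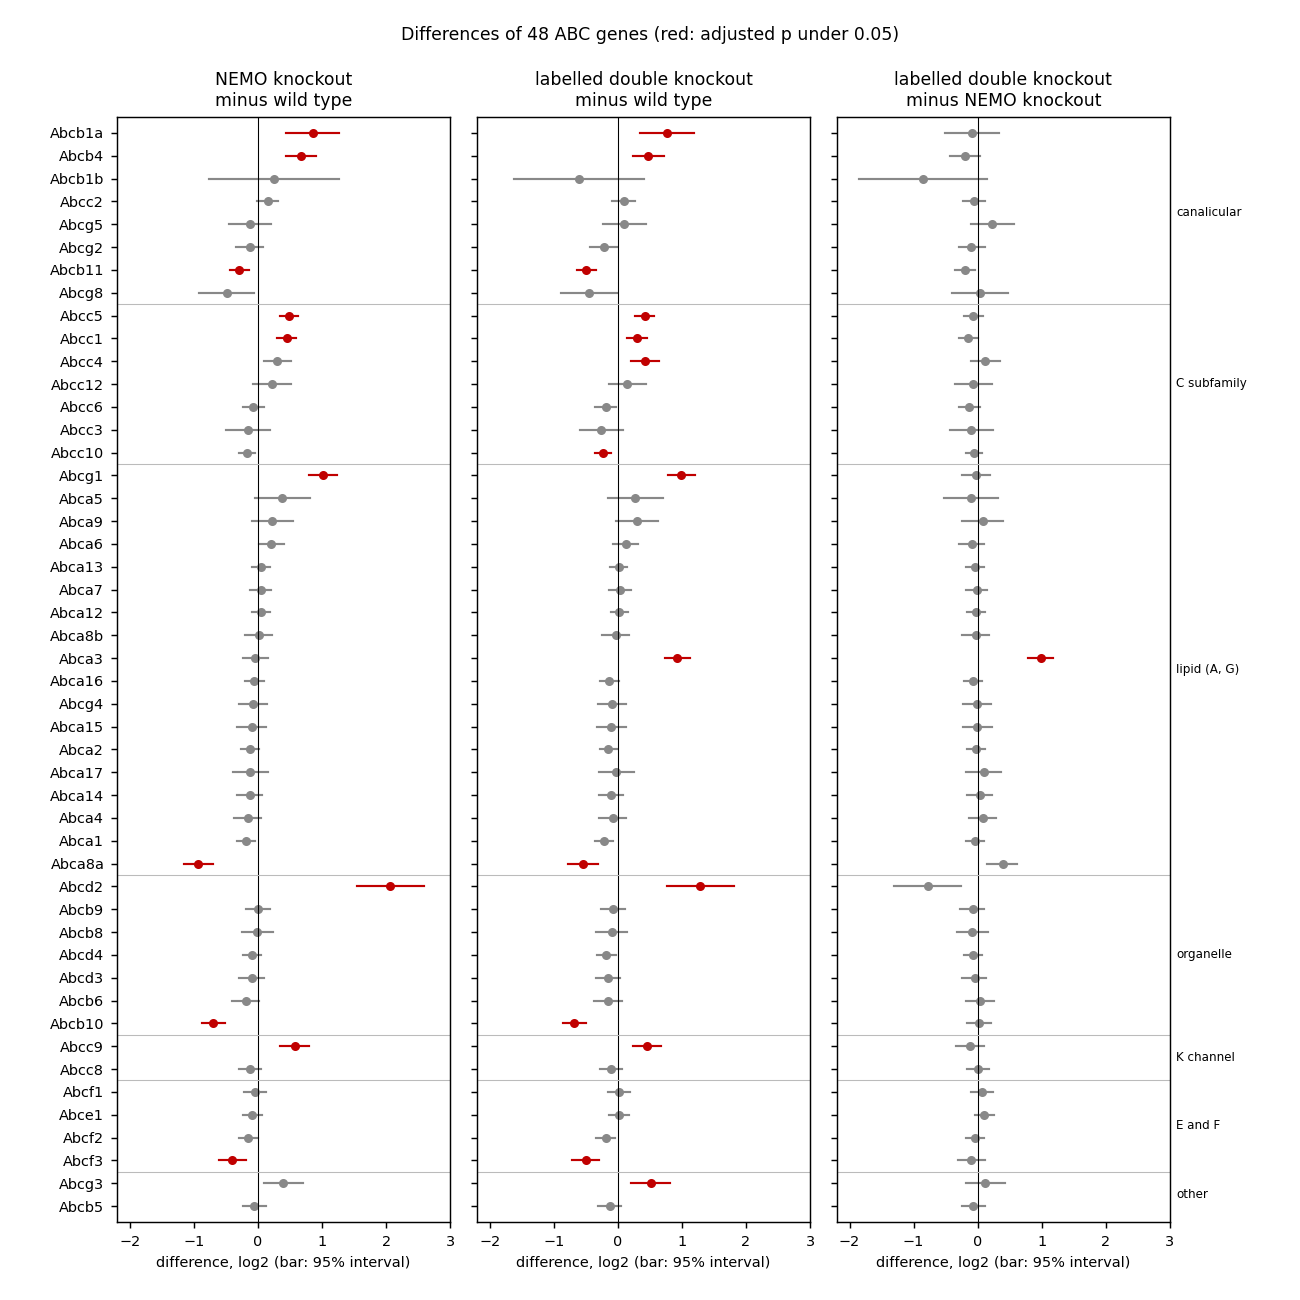
Differences in log2 signal for the 48 ABC genes in the 3 comparisons, grouped by role, with 95% intervals from the limma fit; red marks an adjusted p under 0.05. Abcd2 lies farthest to the right in the comparison of NEMO knockout and wild type, at 2.06, and Abca3 is the single red gene between the knockout groups, at 0.98.

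Among the 8 exporters of the canalicular membrane, 2 rose and 1 fell in each knockout group against wild type. That is 37.5% in each, beside 7.68% and 9.32% of all probe sets. Between the knockout groups none was called. The member that fell was Abcb11, the bile salt export pump and the rate-limiting step of bile salt secretion. Its signal was 12.01, 12.06 and 12.08 in wild type, 11.80, 11.72 and 11.76 in the NEMO knockout, and 11.45, 11.59 and 11.64 in the labelled double knockout. All 3 groups were apart from each other, in that order from high to low. The difference was -0.29 ± 0.07 (SE, 3 arrays a group) in the NEMO knockout, a 1.22-fold fall (limma adjusted p = 0.0294), and -0.49 ± 0.07 in the labelled double knockout, a 1.40-fold fall (adjusted p = 0.00198). The step of -0.20 between the knockout groups did not pass the test (adjusted p = 0.498). The first call ended without any 1 of the wild type arrays or of NEMO knockout arrays 2 and 3, where adjusted p ran from 0.0625 to 0.0958; the second held in each such fit.

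Abcb4 supplies the phosphatidylcholine that shields the bile duct lining from bile salts. It read 10.76, 10.99 and 10.94 in wild type, 11.57, 11.76 and 11.38 in the NEMO knockout, and 11.43, 11.44 and 11.24 in the labelled double knockout. Every knockout array was above every wild type array, while the knockout groups overlapped. The rise was 0.67 ± 0.11 (SE; 1.59-fold) in the NEMO knockout with limma adjusted p = 0.00532, and 0.47 ± 0.11 (1.39-fold) in the labelled double knockout with adjusted p = 0.0248. The call in the labelled double knockout ended without wild type array 1 or 3 or labelled double knockout array 1 or 2 (adjusted p of 0.0876, 0.0639, 0.0834 and 0.0799).

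Abcb1a and Abcb1b encode the 2 P-glycoproteins of the mouse, broad drug and xenobiotic exporters; their sequences are closely related, so that their probe signals may not be fully separate. Abcb1a read 6.55, 6.03 and 6.70 in wild type, 7.49, 6.93 and 7.43 in the NEMO knockout, and 7.12, 7.19 and 7.27 in the labelled double knockout. No knockout array reached down to the wild type range. Abcb1a was 0.86 ± 0.19 (SE; 1.81-fold) above wild type in the NEMO knockout and 0.77 ± 0.19 (1.70-fold) above it in the labelled double knockout, with limma adjusted p = 0.0219 and 0.0317. The first call ended without wild type array 2 or NEMO knockout array 1 or 3 (adjusted p of 0.0529, 0.0641 and 0.0895), and in a fit on the 2 groups alone (0.0653). The second ended without wild type array 1 or 2 or any 1 of the labelled double knockout arrays (adjusted p from 0.0615 to 0.107), after quantile normalisation (0.0504) and with all rows of the table tested (0.0563).

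Abcb1b, the paralogue induced in injured and regenerating liver, was scattered. It read 6.80, 5.37 and 6.47 in wild type, 7.50, 5.88 and 6.01 in the NEMO knockout, and 5.50, 5.65 and 5.68 in the labelled double knockout. One array of each of the first 2 groups was well above or below its fellows, and all 3 labelled double knockout arrays lay near the bottom of the wild type range. The labelled double knockout was -0.85 from the NEMO knockout (95% interval -1.86 to 0.15, limma adjusted p = 0.718) and -0.61 from wild type (-1.62 to 0.40, adjusted p = 0.525), and the NEMO knockout was 0.25 from wild type (-0.76 to 1.26, adjusted p = 0.815). Each interval includes no change; that for the NEMO knockout against wild type also includes a rise the size of that of Abcb1a, and that for the labelled double knockout against wild type does not, but includes a fall of that size.

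The other canalicular exporters did not pass the test in any comparison. Abcc2, the conjugated bilirubin pump, read 12.14, 11.98 and 12.03 in wild type, 12.31, 12.07 and 12.21 in the NEMO knockout, and 12.15, 12.14 and 12.11 in the labelled double knockout. Its 95% intervals against wild type were -0.02 to 0.32 and -0.09 to 0.26, which leave out a fall the size of that of Abcb11. Abcg2, which exports urate and sulphated conjugates, differed from wild type by -0.13 (-0.34 to 0.08) and -0.22 (-0.43 to -0.02), the second with limma adjusted p = 0.199.

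Abcg5 and Abcg8, the partners of the sterol pump, share the short start region printed above. Abcg5 read 10.58, 10.51 and 10.91 in wild type, 10.77, 10.22 and 10.64 in the NEMO knockout, and 10.66, 10.85 and 10.80 in the labelled double knockout, with all groups overlapping. Its differences from wild type were -0.13 (95% interval -0.46 to 0.21) and 0.10 (-0.23 to 0.44). Abcg8 read 9.61, 9.56 and 9.98 in wild type, 9.58, 8.85 and 9.25 in the NEMO knockout, and 9.13, 9.53 and 9.13 in the labelled double knockout. Its differences were -0.49 (-0.92 to -0.06) and -0.45 (-0.88 to -0.02), among the larger uncalled ones, with limma adjusted p = 0.188 and 0.218. The difference between the changes of the pair was not tested.

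**Figure D2:**
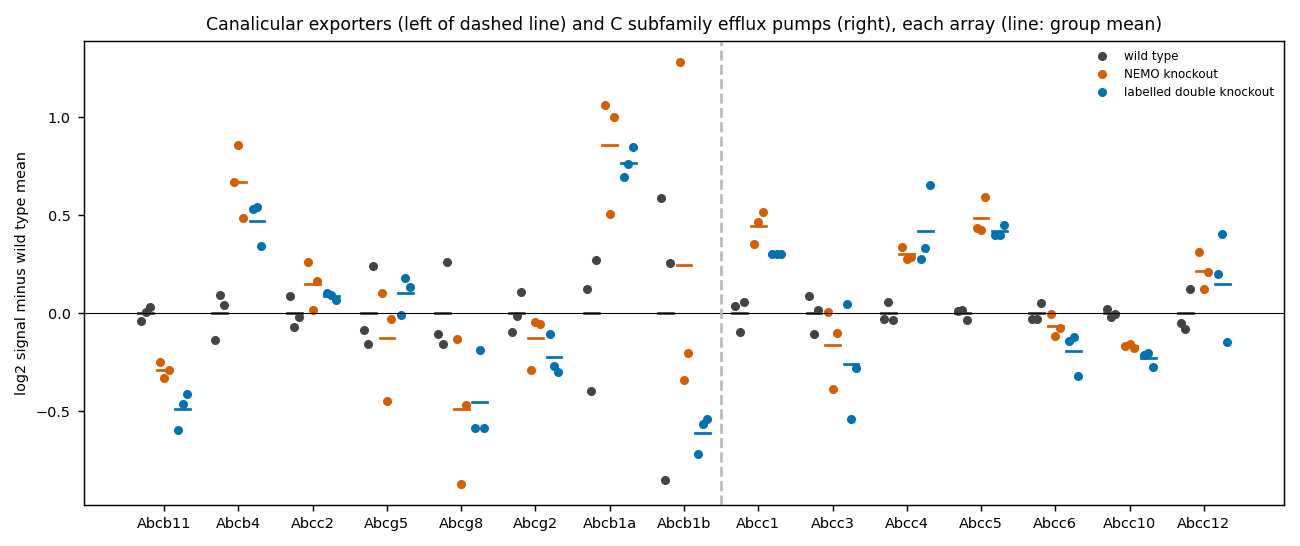
Log2 signal of each of the 9 arrays minus the wild type mean for the 8 canalicular exporters and the 7 C subfamily pumps, with points for single arrays coloured by genotype. Abcb11 arrays of the labelled double knockout lie lowest of its 3 groups, Abcb4 and Abcb1a arrays of both knockout groups lie above 0, and Abcb1b spreads widest within wild type and within the NEMO knockout.

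Of the 7 C subfamily pumps for conjugates and anions, 2 rose in the NEMO knockout and 3 rose and 1 fell in the labelled double knockout. The shares called were 28.6% and 57.1%, beside 7.68% and 9.32% of all probe sets. Abcc5, an exporter of cyclic nucleotides and other organic anions, read 6.35, 6.35 and 6.30 in wild type, 6.77, 6.76 and 6.93 in the NEMO knockout, and 6.73, 6.73 and 6.78 in the labelled double knockout. The wild type arrays were tightly grouped and lay below all others. The rise was 0.49 ± 0.07 (SE; 1.40-fold, limma adjusted p = 0.00215) and 0.42 ± 0.07 (1.34-fold, adjusted p = 0.004), and neither call was lost in any alternative run.

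Abcc1, an exporter of glutathione conjugates and leukotrienes, showed the same order. It read 6.44, 6.31 and 6.47 in wild type, 6.76, 6.87 and 6.92 in the NEMO knockout, and 6.71 on all 3 arrays of the labelled double knockout. It was 0.45 ± 0.07 (SE; 1.36-fold) above wild type in the NEMO knockout, with limma adjusted p = 0.00436, and 0.30 ± 0.07 (1.23-fold) above it in the labelled double knockout, with adjusted p = 0.0255. The second call ended without wild type array 1 or 2 or any 1 of the labelled double knockout arrays (adjusted p from 0.0582 to 0.083), after median centring (0.0868) and after quantile normalisation (0.0593). The 3 labelled double knockout values of Abcc1 were identical (6.7065), a tie of all 3 arrays that 5 of the 48 members had in some group. Their SD of 0.0 goes into the shared spread behind both calls. Ties of only 2 arrays were not counted, such as Abcc5 (6.7336) and Abcc9 (9.0811) in the labelled double knockout.

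Abcc4, which exports bile acids with glutathione across the blood-facing membrane, was called in the labelled double knockout. It read 6.67, 6.75 and 6.66 in wild type, 7.03, 6.97 and 6.98 in the NEMO knockout, and 6.97, 7.03 and 7.35 in the labelled double knockout. Both knockout groups lay above wild type on every array. The difference was 0.42 ± 0.10 (SE; 1.34-fold, limma adjusted p = 0.0245) in the labelled double knockout and 0.30 ± 0.10 in the NEMO knockout (adjusted p = 0.102), and the knockout groups differed by 0.12 (adjusted p = 0.851). The call ended without wild type array 1 or 3 (adjusted p of 0.0775 and 0.0821) and in a fit on the 2 groups alone (0.0667), while the NEMO knockout gained a call without labelled double knockout array 3 (0.0252) and in a fit on its 2 groups (0.0391).

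Abcc10, an exporter of lipophilic conjugates and drugs, ran the other way. It read 7.75, 7.71 and 7.73 in wild type, 7.56, 7.57 and 7.55 in the NEMO knockout, and 7.52, 7.53 and 7.46 in the labelled double knockout. The 3 groups were apart, though by small amounts: the limma difference from wild type was -0.17 (adjusted p = 0.114) and -0.23 ± 0.06 (SE; adjusted p = 0.0305). The call ended without any 1 of the wild type or labelled double knockout arrays (adjusted p from 0.058 to 0.117), with a trend in the prior variance (0.0516) and after cyclic loess (0.0521).

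Abcc3, the pump through which conjugates leave the hepatocyte for blood, was not called. It read 11.20, 11.00 and 11.12 in wild type, 11.11, 10.72 and 11.01 in the NEMO knockout, and 11.15, 10.57 and 10.83 in the labelled double knockout, overlapping throughout. Its 95% intervals against wild type, -0.50 to 0.18 and -0.59 to 0.08, leave out a rise the size of that of Abcc4 or Abcc5. Abcc6, the hepatic pump whose loss causes ectopic mineralisation, differed by -0.07 (-0.23 to 0.10) and -0.19 (-0.36 to -0.03; limma adjusted p = 0.155), and Abcc12 by 0.22 (-0.07 to 0.51) and 0.15 (-0.14 to 0.44).

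**Figure D3:**
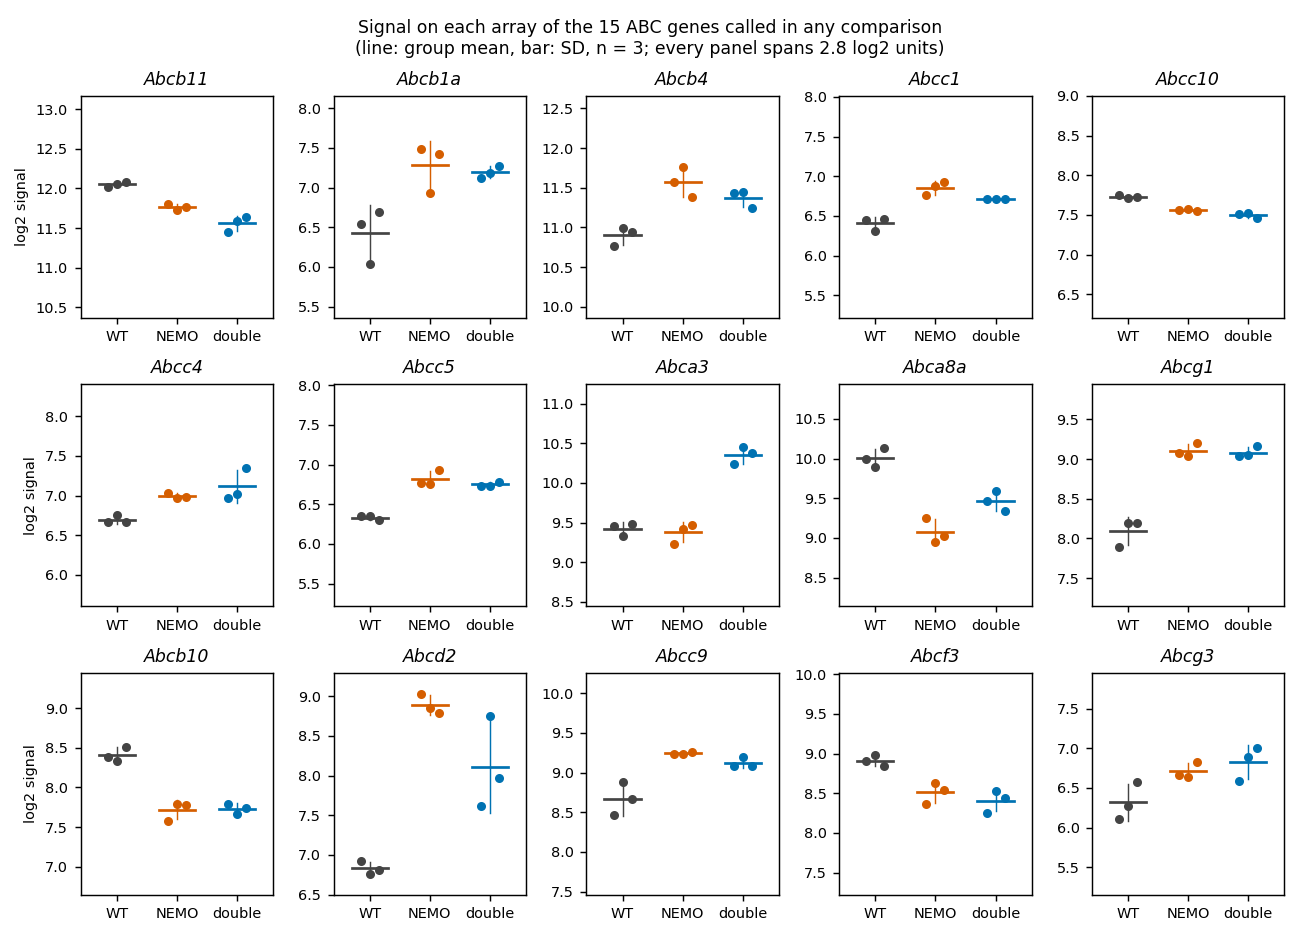
Log2 signal of the 15 ABC genes called in at least 1 comparison, with a point for each of the 9 arrays, a line at the group mean and a bar for the SD; each panel spans the same 2.8 log2 units. Abcd2 separates all 3 groups, with labelled double knockout array 2, at 8.75, next to the NEMO knockout arrays, and Abca3 is raised in the labelled double knockout alone.

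The A and G subfamily members that handle cell lipid numbered 18. In the NEMO knockout 1 rose and 1 fell (11.1% called, beside 7.68% of all probe sets), and in the labelled double knockout 2 rose and 1 fell (16.7%, beside 9.32%). Of all single-symbol genes 9.28% and 11% were called. The first share of the 18 is near that background and the second not far above it. Abcg1, which passes cholesterol to high-density lipoprotein and is prominent in macrophages, read 7.89, 8.19 and 8.19 in wild type, 9.08, 9.04 and 9.20 in the NEMO knockout, and 9.03, 9.05 and 9.17 in the labelled double knockout. The knockout groups were interleaved and lay well above wild type. The rise was 1.01 ± 0.09 (SE; 2.02-fold, limma adjusted p = 0.000403) and 0.99 ± 0.09 (1.99-fold, adjusted p = 0.000362), and both calls held in every alternative run.

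Abca1, which loads lipid onto apolipoprotein A-I and shares its regulation by sterol-sensing receptors with Abcg1, did not rise with it. It read 10.87, 10.89 and 10.75 in wild type, 10.66, 10.64 and 10.66 in the NEMO knockout, and 10.59, 10.58 and 10.67 in the labelled double knockout. Both knockout groups were below wild type on every array, by -0.18 and -0.22, and neither difference was called (limma adjusted p = 0.126 and 0.0589).

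Abca8a, implicated in cholesterol efflux from hepatocytes, was the A subfamily member that fell. It read 9.99, 9.90 and 10.13 in wild type, 9.26, 8.95 and 9.02 in the NEMO knockout, and 9.46, 9.59 and 9.34 in the labelled double knockout. The 3 groups did not overlap, with the labelled double knockout between the other groups. It was -0.93 ± 0.10 (SE) from wild type in the NEMO knockout, a 1.91-fold fall (limma adjusted p = 0.000899), and -0.54 ± 0.10 in the labelled double knockout, a 1.46-fold fall (adjusted p = 0.0102). Both calls held in every alternative run, while the difference of 0.39 between the knockout groups (95% interval 0.15 to 0.62) did not pass after adjustment (adjusted p = 0.302).

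Abca8a lies on chromosome 11 in a run of adjacent protein-coding genes, Abca8b, Abca8a, Abca9, Abca6 and Abca5, which arose by duplication and are close in sequence, so that probe signals may be shared. None of its 4 neighbours was called. Their differences from wild type in the NEMO knockout were 0.01 for Abca8b, 0.22 for Abca9 (limma adjusted p = 0.447), 0.21 for Abca6 (adjusted p = 0.202) and 0.38 for Abca5 (95% interval -0.04 to 0.81, adjusted p = 0.301). Abca5, a lysosomal lipid transporter, read 7.69, 7.82 and 7.24 in wild type, 7.84, 8.00 and 8.06 in the NEMO knockout, and 7.51, 8.22 and 7.84 in the labelled double knockout. Abca9 read 6.65, 6.98 and 6.87 in wild type, 6.92, 6.91 and 7.33 in the NEMO knockout, and 7.07, 6.98 and 7.34 in the labelled double knockout, 0.30 from wild type (adjusted p = 0.282). For Abca5 the NEMO knockout arrays lay just above the wild type ones, 7.84 against 7.82 at the closest, and its other groups overlapped, as did all groups of Abca9.

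Abca3, known as the phospholipid transporter of lamellar bodies in lung, was the member called between the knockout groups. It read 9.45, 9.33 and 9.48 in wild type, 9.24, 9.42 and 9.47 in the NEMO knockout, and 10.23, 10.45 and 10.38 in the labelled double knockout. Wild type and NEMO knockout arrays were interleaved, and each labelled double knockout array was above all of them. The labelled double knockout was 0.98 ± 0.09 (SE; 1.97-fold) above the NEMO knockout with limma adjusted p = 0.00564, and 0.93 ± 0.09 (1.91-fold) above wild type with adjusted p = 0.000357. The first difference was 0.91 to 1.04 over the alternatives, with adjusted p from 0.00103 to 0.0496. The NEMO knockout differed from wild type by -0.04 (95% interval -0.24 to 0.16).

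The divergent neighbour of Abca3, whose promoter is printed beside it, did not follow. Abca17, a lipid transporter best known from testis, read 5.72, 5.53 and 5.51 in wild type, 5.56, 5.37 and 5.47 in the NEMO knockout, and 5.83, 5.53 and 5.32 in the labelled double knockout. Its difference between the knockout groups was 0.09 (95% interval -0.19 to 0.37, limma adjusted p = 0.93), and its probe set is among the 12 dimmer ones. Abca3 lies on chromosome 17, with its start 4.74 Mb from that of Cdkn1a, the gene named in the label of the double knockout. Within 10 Mb of the Cdkn1a start, 3 of 411 measured genes (0.73%) were called between the knockout groups, and Abca3 itself is 1 of the 3. Elsewhere it was 22 of 15203 genes (0.145%). Only genes with an annotated start were counted. For NEMO knockout against wild type the shares were 10.9% and 9.24%, and for labelled double knockout against wild type 13.9% and 11.1%. This window was chosen after the value of Abca3 had been seen, and the part of position in the result was not tested. Among the members with an annotated start, Abcf1 also lies in that window with Abca3 and Abca17 and differed between the knockout groups by 0.06. Abcg1 is on chromosome 17 too but had no such start, so its distance is not given. Its difference between the knockout groups was -0.02. The remaining 15 lipid handlers of the A and G subfamilies, those above included, were not called in any comparison; their differences from wild type ran from -0.18 to 0.38 in the NEMO knockout and from -0.22 to 0.30 in the labelled double knockout.

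Of the 7 measured members in mitochondrial, peroxisomal and lysosomal membranes, 1 rose and 1 fell in each knockout group. That is 28.6% in each, beside 7.68% and 9.32% of all probe sets. Abcd2, a peroxisomal carrier of very long-chain and polyunsaturated fatty acyl-CoA, read 6.92, 6.77 and 6.81 in wild type, 9.03, 8.86 and 8.79 in the NEMO knockout, and 7.61, 8.75 and 7.97 in the labelled double knockout. The groups did not overlap, but the labelled double knockout was spread (SD 0.58, n = 3, beside 0.08 and 0.12), with array 2 just under the lowest NEMO knockout array. The rise of 2.06 ± 0.23 (SE) in the NEMO knockout was 4.18-fold (limma adjusted p = 0.000992), the greatest difference of the 48 members in either direction, and that of 1.28 ± 0.23 in the labelled double knockout was 2.43-fold (adjusted p = 0.00866). The difference between the knockout groups was -0.78 (95% interval -1.31 to -0.26, adjusted p = 0.403), and it became -1.10 with adjusted p = 0.0328 without labelled double knockout array 2.

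Abcb10, a transporter of the inner mitochondrial membrane needed for haem synthesis, fell in both knockout groups. It read 8.38, 8.33 and 8.51 in wild type, 7.58, 7.80 and 7.77 in the NEMO knockout, and 7.79, 7.66 and 7.74 in the labelled double knockout. The knockout groups were interleaved and lay below wild type. The fall was -0.70 ± 0.08 (SE; 1.62-fold, limma adjusted p = 0.00116) and -0.68 ± 0.08 (1.60-fold, adjusted p = 0.00106), kept in every alternative run. The relatives of Abcd2 did not share its rise: Abcd3, also peroxisomal, differed from wild type by -0.10 and -0.15, and Abcd4, a lysosomal member involved in cobalamin handling, by -0.10 and -0.18, none of them called. The 5 uncalled members of these membranes lay between -0.19 and 0.00 in the NEMO knockout and between -0.18 and -0.08 in the labelled double knockout.

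Abcc9 encodes the sulphonylurea receptor subunit of ATP-sensitive potassium channels, found in smooth muscle and pericytes. It read 8.46, 8.88 and 8.66 in wild type, 9.23, 9.23 and 9.26 in the NEMO knockout, and 9.08, 9.20 and 9.08 in the labelled double knockout. Both knockout groups were above every wild type array. The rise was 0.57 ± 0.10 (SE; 1.49-fold, limma adjusted p = 0.00745) and 0.45 ± 0.10 (1.37-fold, adjusted p = 0.0209). The second call ended without wild type array 1 or 3 or labelled double knockout array 2 or 3 (adjusted p from 0.0507 to 0.0706) and in a fit on the 2 groups alone (0.0613). Abcc8, the pancreatic counterpart, differed from wild type by -0.12 and -0.11, neither called.

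The 4 members of the E and F subfamilies lack membrane domains and act on ribosomes or in immune signalling. Of these, 25% were called in each comparison with wild type, beside 7.68% and 9.32% of all probe sets. The called member, Abcf3, fell. It read 8.90, 8.98 and 8.84 in wild type, 8.36, 8.63 and 8.54 in the NEMO knockout, and 8.26, 8.52 and 8.44 in the labelled double knockout. Wild type was above all knockout arrays. The difference was -0.40 ± 0.09 (SE; 1.32-fold, limma adjusted p = 0.031) and -0.50 ± 0.09 (1.42-fold, adjusted p = 0.00944). The first call ended without any 1 of the wild type arrays, of NEMO knockout arrays 1 and 3 or of labelled double knockout array 3 (adjusted p from 0.0518 to 0.103), and with all rows of the table tested (0.0538). Abce1, a ribosome recycling factor, and Abcf1 and Abcf2 stayed within -0.19 to 0.02 of wild type in both comparisons.

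Abcg3, a mouse relative of Abcg2, was called in the labelled double knockout by a narrow margin. It read 6.11, 6.28 and 6.57 in wild type, 6.66, 6.64 and 6.83 in the NEMO knockout, and 6.59, 6.89 and 7.00 in the labelled double knockout. Both knockout groups lay above wild type, the closest arrays being 6.57 and 6.59. The difference was 0.51 ± 0.14 (SE; 1.42-fold, limma adjusted p = 0.049) in the labelled double knockout and 0.39 in the NEMO knockout (adjusted p = 0.133). The call ended in 12 alternatives with adjusted p from 0.0591 to 0.17; 7 of these left out 1 array, namely wild type 1 or 2, any 1 of the NEMO knockout, or labelled double knockout 2 or 3. Abcb5, the other member without an assigned role, was not called in any comparison.

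Lists of genes that work with these transporters were read beside them. Of 3 ABC proteins with other symbols, Tap1, the peptide transporter of antigen presentation, read 8.20, 7.89 and 8.01 in wild type, 8.92, 8.86 and 9.16 in the NEMO knockout, and 7.88, 8.26 and 8.35 in the labelled double knockout. Only the NEMO knockout stood apart, above both other groups. Tap1 was 0.95 ± 0.14 (SE) above wild type in the NEMO knockout (limma adjusted p = 0.00306), and the labelled double knockout was -0.82 from the NEMO knockout (adjusted p = 0.069; 0.0488 after quantile normalisation) and 0.13 from wild type (adjusted p = 0.692). Its partner Tap2 (0.04) and the chloride channel Cftr (-0.05) were not called in the NEMO knockout.

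Of 11 transcription factors that regulate hepatic ABC genes, 1 rose in each knockout group and 1 fell in the labelled double knockout. The shares called were 9.09% and 18.2%, beside 7.68% and 9.32% of all probe sets. The first is near that background. The second is near the 15.7% called of the probe sets at or above the median brightness. Nfe2l2, the oxidative stress regulator known to induce C subfamily pumps, read 10.29, 10.18 and 10.26 in wild type, 10.70, 10.84 and 10.74 in the NEMO knockout, and 10.74, 10.78 and 10.87 in the labelled double knockout. It rose by 0.52 ± 0.07 and 0.55 ± 0.07 (SE; limma adjusted p = 0.00191 and 0.00119), with wild type apart from both. Nr5a2, a nuclear receptor of bile acid synthesis, was -0.26 from wild type in the labelled double knockout (adjusted p = 0.0299), a call that ended without wild type array 1 or 3 or labelled double knockout array 1 or 3 (adjusted p from 0.091 to 0.105), and in 3 other alternatives. Nr1h4, the bile acid receptor that activates Abcb11, differed from wild type by 0.08 in the NEMO knockout (95% interval -0.12 to 0.27), and its target Nr0b2 by -0.60 (-1.54 to 0.33, adjusted p = 0.473).

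Of 9 further carriers of bile acids and organic ions, 2 (22.2%) fell in the NEMO knockout and 3 (33.3%) fell in the labelled double knockout. No rise passed the test. Of all probe sets, 7.68% and 9.32% were called in these comparisons. Slco1a1, an uptake carrier of the blood-facing membrane, read 11.74, 11.45 and 11.87 in wild type, 10.21, 10.40 and 10.40 in the NEMO knockout, and 10.35, 9.92 and 9.68 in the labelled double knockout. Its limma difference from wild type was -1.35 ± 0.17 (SE; adjusted p = 0.00138) and -1.71 ± 0.17 (adjusted p = 0.000402), with wild type above all knockout arrays. Slco2b1 was -0.26 and -0.30 from wild type (adjusted p = 0.049 and 0.024), and Slco1b2 was -0.47 in the labelled double knockout (adjusted p = 0.025). The Slco2b1 calls ended in 14 and 4 of 18 alternatives, the first without any 1 of the 9 arrays (adjusted p up to 0.152) and the second without wild type array 1 or any 1 of its own group (up to 0.0803); that of Slco1b2 ended without wild type array 1 or 3 or any 1 of the labelled double knockout arrays (up to 0.0965). Slc51b, a subunit of the bile acid exporter of the blood-facing membrane, read 6.29, 6.63 and 6.41 in wild type, 7.31, 6.75 and 7.63 in the NEMO knockout, and 7.07, 7.08 and 7.72 in the labelled double knockout. Every knockout array was above every wild type array, and the differences of 0.78 (95% interval 0.26 to 1.31) and 0.85 (0.32 to 1.37) had limma adjusted p = 0.0822 and 0.055. They passed in 1 and 6 of 18 alternatives, in which adjusted p ran from 0.0289 to 0.254 and from 0.029 to 0.173; without NEMO knockout array 2 both passed, at 0.0289 and 0.029.

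Of 13 partners at the canalicular membrane, 1 rose and 1 fell in the NEMO knockout, and 2 fell in the labelled double knockout. This was 15.4% in each comparison, beside 7.68% and 9.32% of all probe sets. It is near the 12.9% and 15.7% called of the probe sets at or above the median brightness. Ceacam1, an adhesion protein of the bile canaliculus, was -0.33 ± 0.06 and -0.39 ± 0.06 (SE) from wild type (limma adjusted p = 0.00822 and 0.00286). Ezr, which anchors membrane proteins to actin, was 0.38 ± 0.07 above wild type in the NEMO knockout (adjusted p = 0.0105) and 0.22 in the labelled double knockout (adjusted p = 0.0952). Anpep, a canalicular peptidase, was -0.27 ± 0.06 in the labelled double knockout (adjusted p = 0.0251), a call that ended without wild type array 1 or 3 or labelled double knockout array 2 or 3 (adjusted p from 0.0763 to 0.0905). None of 6 acceptors and remodelling enzymes of effluxed lipid was called in any comparison. No gene of the 5 lists was called between the knockout groups, where 0.197% of all probe sets were called.

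Markers of other liver cell types moved in the same comparisons as the ABC genes. In whole liver RNA, more cells of a type and more RNA per cell cannot be told apart, nor can fewer cells and less RNA per cell. Of 11 monocyte and infiltrating macrophage markers, 10 were higher in each knockout group than in wild type, with an array mean of 6.59 to 6.72 in wild type, 8.10 to 8.24 in the NEMO knockout and 8.09 to 8.37 in the labelled double knockout. Kupffer cell markers were higher for 8 of 10, at 8.83 to 8.97, 9.49 to 9.68 and 9.50 to 9.62. Stellate cell and fibroblast markers were higher for 9 of 12, at 8.22 to 8.38, 9.25 to 9.51 and 9.30 to 9.41. Cholangiocyte markers were higher for 3 of 7, at 6.20 to 6.32, 6.73 to 6.99 and 6.62 to 7.10. T and NK cell markers were higher for 3 of 9 in the NEMO knockout and 0 of 9 in the labelled double knockout, at 5.57 to 5.64, 5.81 to 6.23 and 5.61 to 5.80. Neutrophil markers were higher for 2 and 1 of 8. Of all probe sets, 7.68% and 9.32% were called against wild type, with 5.66% and 5.81% higher.

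Hepatocyte and endothelial markers did not move in this way: 0 of 12 and 0 of 10 were higher or lower in either knockout group, with hepatocyte array means of 12.82 to 12.96, 12.80 to 12.89 and 12.73 to 12.95, and endothelial ones of 8.92 to 9.01, 8.88 to 9.04 and 8.90 to 9.11. No B cell marker of 5 was higher either. No marker of the 9 lists was called between the knockout groups, the comparison in which Abca3 and 0.197% of all probe sets were called. Without overlap, 4 of 9 T and NK cell and 3 of 8 neutrophil markers were lower in the labelled double knockout. Of all probe sets, 5.75% were lower in this way. In each other list at most 2 markers were apart, counting both directions. RMA gives every probe set a value, so none of these markers is at 0. Macrophage and stellate markers moved with the rises of Abcg1, Abcd2, Abcc9, Abcc1, Abcc5, Abcb1a and Abcb4 and with the falls of Abcb11, Abcb10, Abca8a and Abcf3, and their part in these results was not tested.

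**Figure D4:**
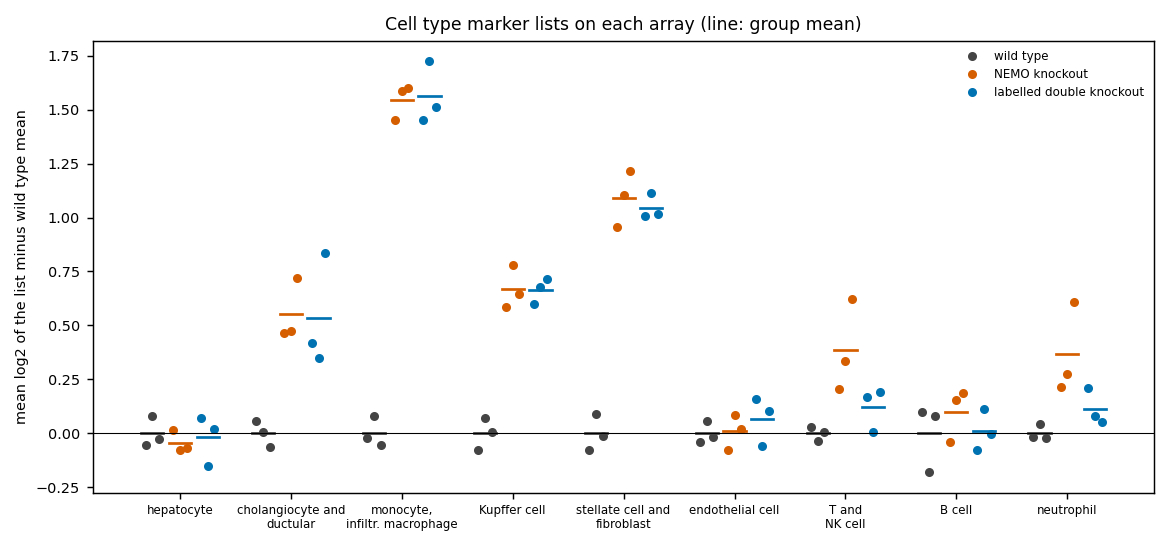
Mean log2 signal of 9 cell type marker lists on each of the 9 arrays, minus the wild type mean, coloured by genotype. Macrophage, stellate, Kupffer and cholangiocyte markers lie above 0 on all 6 knockout arrays. The T and NK cell and neutrophil lists do too, but by as little as 0.0039 and 0.0526. The hepatocyte and endothelial lists stay near 0.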

How the data were processed

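Total RNA of whole mouse liver, 9 samples, was hybridised to 1-colour Affymetrix gene arrays. The deposited log2 values were made by the authors with RMA, per the submitters' processing notes; the base of the logarithm was judged from the range of the values. RMA pulls small differences between dim probe sets together. Of 35556 rows, 28939 were tested, and the 6617 numbered below the first probe set with a gene symbol were left out; neither step used the values. Genes were named through the platform's annotation, with all 48 member symbols found in the RefSeq gene table (GRCm38.p6). Signals do not give a depth, and the number of arrays limits the precision.

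Means of the 3 groups were fitted to all 9 arrays, which share 1 spread, with lmFit and eBayes of limma 3.58.1 (R 4.3.3, no trend), and p-values were adjusted over all tested probe sets (Benjamini-Hochberg). The fit was tested on simulated data. Intervals cover 95% for single genes. The genes named are the called members, all canalicular and C subfamily members, the 3 uncalled members with the greatest difference in each comparison, neighbours of members discussed, and up to 4 called genes per pathway list; Abca1, Abca17, Nr1h4, Nr0b2, Slc51b and other uncalled relatives were named after their values were seen. Marker genes are given as counts. The members and the gene lists were chosen with earlier results of these data known. Alternatives were a fit on the 2 groups compared, a replicate block, array weights, a variance trend, median centring, quantile normalisation, cyclic loess, brighter probe sets only, all rows, the dimmest probe set, and leaving out each array.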

Additional observations from a re-analysis of the deposited data

How the results depend on the processing

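The count of called members was 11 for NEMO knockout against wild type and 8 to 13 over the alternatives (8 to 11 with 1 array left out), and 15 for labelled double knockout against wild type with 8 to 14 when 1 array was left out and 12 to 16 otherwise. Between the knockout groups it was 1, and 1 to 2 with 1 array left out. The labels do not say that replicate numbers pair the samples, and whether they mark a shared source was not settled. Deviations of same-numbered arrays from their group means correlated at 0.39, 0.08 and 0.25 between the knockout groups. Between wild type and the knockout groups these correlations ran from -0.12 to 0.18. Arrays with different numbers ran from -0.30 to 0.18, and not every array correlated best with its own number. With the replicate block the counts were 12, 1 and 15. Over all probe sets, the 57 calls between the knockout groups became 23 in a fit on 2 groups, 18 with the block, 28 with all rows, 31 after median centring, 49 to 78 in the other alternatives on all arrays, and 10 (without labelled double knockout array 3) to 44 (without wild type array 1) with 1 array left out. With 1 array left out the calls against wild type, 2222 and 2696, ran from 1382 (without NEMO knockout array 3) to 2335 and from 1601 (without labelled double knockout array 3) to 2720. Median centring moved the share of higher calls from 73.7% to 52.7% for the NEMO knockout and from 62.3% to 44.1% for the labelled double knockout, both against wild type, as the median difference shifted from -0.04 to -0.10 and from -0.03 to -0.09. Over the members, directions of called differences never reversed in the alternatives run. Reversals touched uncalled differences only. With array weights, Abcb10 and Abcb1a between the knockout groups became -0.03 and 0.02, and Abcb1b in the NEMO knockout became -0.18. With 1 array left out, differences between the knockout groups ran from -0.29 to 0.06 for Abca5, -0.03 to 0.22 for Abca9, -0.05 to 0.06 for Abcb10, -0.26 to 0.01 for Abcb1a, -0.19 to 0.08 for Abcc12, -0.25 to 0.04 for Abcc3, -0.07 to 0.02 for Abcg1 and -0.15 to 0.22 for Abcg8; those of NEMO knockout against wild type ran from -0.09 to 0.03 for Abca3, -0.27 to 0.54 for Abcb1b and -0.24 to 0.04 for Abcg5. Median centring added calls for Abcc10 in the NEMO knockout (adjusted p = 0.0436) and for Abca1 in both knockout groups against wild type; the trend and the use of brighter probe sets alone added Abca1 in the labelled double knockout as well, and the block added Abcg3 in the NEMO knockout (0.0265). The same alternatives were added for the named pathway genes after the data were seen. Except where an alternative tests more features or fewer arrays, the cause of a change was not tested.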
